A study of Arabidopsis thaliana with 14 samples.

Results

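Cytochrome P450 monooxygenases (P450s, gene names CYP) were followed through a cold priming experiment in rosettes of Arabidopsis thaliana Col-0. The members are the genes whose name in the expression table gives a P450 family, without the families CYP94, CYP707, CYP79 and CYP83 and the subfamily CYP81F, which act on jasmonate, abscisic acid and glucosinolates. This gave 172 of 27861 genes, in 35 families and 47 subfamilies, and left out 21 P450 genes of the named families. The names of 35 further genes hold the word P450 in another form, such as TT7 or PAD3, and these were not members. Without the P450 reductases, 33 of these genes remained. The rule kept 8 members of families that act on gibberellin, brassinosteroid, strigolactone or cytokinin, of which CYP711A1, CYP88A3 and CYP90D1 reached a mean of 1 FPKM (sequenced fragments of a gene per kilobase of transcript, scaled to the total of mapped fragments in its library), so the set does not lie strictly outside hormone routes. In 3 members the family number in the gene's description differed from that in its symbol, and the symbol was followed.

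All plants were Col-0 wild type, grown at 20 °C for 28 days. Primed plants (P) then had 24 h at 4 °C and were kept for 5 more days at 20 °C (the lag phase), whereas control plants (C) stayed at 20 °C throughout. One set of each was taken at the end of the lag phase (C0, P0). The others were triggered for 30, 60 or 120 min by 4 °C (suffix C) or by heat-filtered high light of 800 µmol m-2 s-1 at 20 °C (suffix L). C60L is thus a control plant library after 60 min of high light. Each of the 14 conditions was 1 RNA-seq library made from at least 5 pooled whole rosettes, so that differences between plants are not measured and a difference between 2 conditions cannot be tested on its own. A fit of priming averaged over the 7 matched pairs of control and primed libraries was not run, and no p-value is given. Throughout, "higher" and "lower" mean an FPKM ratio of at least 1.5-fold between 2 libraries, and members were compared only where their mean over the 14 libraries was at least 1 FPKM.

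P450s are haem enzymes that insert 1 oxygen atom of O2 into small hydrophobic substrates. Most plant P450s sit on the endoplasmic reticulum and receive electrons from NADPH through a reductase. They are among the largest enzyme families of plants and make or modify sterols, carotenoids, phenylpropanoids, cuticular lipids, terpenoids and defence compounds. Genes of the CYP71 clan in particular stand in tandem rows on the Arabidopsis chromosomes, and the substrates of many of them are not known.

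An effective depth, estimated from the steps of low FPKM values, lay between 19.9 M and 29.9 M fragments per library. This estimate is not the number of reads sequenced. From it, a counting error was attached to each ratio, which covers counting error only. The mean of 8 reference genes relative to C0 lay between 0.941 and 1.14, and the median gene of each library between -0.124 (C30C) and 0.00 on the log2 scale. The 2 triggers were visible in marker genes: the cold regulator CBF2 was at 2.04 FPKM in C0 and at 71.7 FPKM in C30C, and the heat shock gene HSP17.6II was at 0.80 FPKM in C0 and at 329 FPKM in C60L. The 4 leaf mesophyll markers summed to between 40208 and 52652 FPKM, while the 4 root markers summed to 0.77 FPKM at most and the 4 flower markers to 2.88 FPKM at most, almost all of it AG. In whole rosettes, fewer cells of a type and less RNA per cell cannot be told apart. C0 is the denominator of all 6 ratios of triggered control plants and of P0/C0. No library of untriggered plants was taken at the later times, so in those 6 ratios trigger and time of day cannot be told apart.

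The 200 bases upstream of the annotated transcript start are shown for 8 members whose levels carry the results below: CYP82G1 and CYP96A4, which had high levels in light, CYP71B2 and CYP71B7, which had low levels there, CYP71B26 and CYP89A2, which stood higher after 120 min of light, and CYP706A1 and CYP706A6, a pair of 1 subfamily that moved apart. The bases were read from RefSeq's TAIR10.1 genome, 5′ to 3′ along the gene. Capitals mark matches, on either strand, to 1 of 7 short motifs: the G-box (CACGTG), the core of the dehydration response element (CCGAC), the W-box core (TTGAC), the GCC box (GCCGCC), the as-1 core (TGACG), the core of the evening element (AATATCT) and a heat shock element unit (GAANNTTC). The W-box core and the as-1 core share letters and can overlap.
CYP82G1 (chr3:9169302-9169501, minus strand): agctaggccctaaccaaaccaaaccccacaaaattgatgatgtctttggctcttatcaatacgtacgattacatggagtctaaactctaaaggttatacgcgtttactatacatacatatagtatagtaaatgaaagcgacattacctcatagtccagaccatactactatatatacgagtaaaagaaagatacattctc
CYP96A4 (chr5:21246775-21246974, minus strand): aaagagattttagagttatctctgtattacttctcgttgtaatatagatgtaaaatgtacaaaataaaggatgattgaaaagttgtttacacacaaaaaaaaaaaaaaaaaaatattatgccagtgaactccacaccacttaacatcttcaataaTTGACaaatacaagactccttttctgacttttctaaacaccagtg
CYP71B2 (chr1:4458802-4459001, plus strand): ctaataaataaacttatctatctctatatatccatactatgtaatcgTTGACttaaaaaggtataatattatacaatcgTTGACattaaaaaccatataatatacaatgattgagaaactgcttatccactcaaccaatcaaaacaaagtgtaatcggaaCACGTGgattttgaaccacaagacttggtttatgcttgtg
CYP71B7 (chr1:4466894-4467093, plus strand): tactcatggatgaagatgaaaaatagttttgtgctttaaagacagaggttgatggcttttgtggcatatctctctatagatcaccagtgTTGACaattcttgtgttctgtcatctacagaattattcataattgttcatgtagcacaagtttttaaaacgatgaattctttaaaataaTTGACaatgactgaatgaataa
CYP71B26 (chr3:9634823-9635022, minus strand): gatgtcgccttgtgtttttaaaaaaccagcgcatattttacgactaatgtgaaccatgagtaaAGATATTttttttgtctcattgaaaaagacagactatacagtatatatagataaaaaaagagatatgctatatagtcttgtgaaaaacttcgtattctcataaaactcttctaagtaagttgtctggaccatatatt
CYP89A2 (chr1:24112909-24113108, plus strand): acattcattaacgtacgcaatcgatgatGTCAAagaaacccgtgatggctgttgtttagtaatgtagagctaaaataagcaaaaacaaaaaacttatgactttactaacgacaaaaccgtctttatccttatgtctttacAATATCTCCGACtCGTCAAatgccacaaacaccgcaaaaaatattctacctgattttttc
CYP706A1 (chr4:11929159-11929358, plus strand): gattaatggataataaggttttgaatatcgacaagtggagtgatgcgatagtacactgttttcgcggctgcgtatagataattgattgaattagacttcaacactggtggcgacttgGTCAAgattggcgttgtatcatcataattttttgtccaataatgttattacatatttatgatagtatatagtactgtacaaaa
CYP706A6 (chr4:7316872-7317071, minus strand): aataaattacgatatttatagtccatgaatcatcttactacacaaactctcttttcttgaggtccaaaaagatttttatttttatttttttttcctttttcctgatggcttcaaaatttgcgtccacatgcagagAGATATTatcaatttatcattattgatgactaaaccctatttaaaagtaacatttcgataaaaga
The window of CYP82G1 held none of the 7 motifs. That of CYP71B2 held a G-box and 2 W-box cores, and those of CYP71B26 and CYP706A6 held 1 evening element core each. That of CYP89A2 held an evening element core, a core of the dehydration response element, 2 W-box cores and an as-1 core. Those of CYP71B7, CYP96A4 and CYP706A1 held W-box cores as their only matches. Over the 69 measured members, the W-box core was found in 49.3% of windows against 38.3% of the windows of 16350 protein-coding genes with a mean of at least 1 FPKM, and the evening element core in 14.5% against 8.35%. The core of the dehydration response element was found in 4.35% against 11.5%, the as-1 core in 7.25% against 16.4%, the G-box in 4.35% against 6.65%, the heat shock unit in 10.1% against 7.30%, and the GCC box in 0 of 69 windows against 1.52%. These are matches of letters, not binding sites.

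Of the 172 members, 69 (40.1%) had a mean of at least 1 FPKM, against 60.8% of all genes. Of the other 103, 91 stayed under 1 FPKM in every library and 2 of these were listed at 0 in all. The subfamilies differed in this: 17 of 24 CYP71B genes and 4 of 5 CYP86A genes were measured, but 5 of 22 CYP705A genes, 2 of 11 CYP71A genes and 0 of 4 CYP702A genes. The members next to the limit were CYP705A33 (mean 1.01 FPKM) and CYP90D1 (1.12 FPKM) inside, and CYP71B37 (0.984 FPKM) and CYP705A22 (0.965 FPKM) outside. The measured members had a median level of 10.2 FPKM, close to the 9.48 FPKM of all measured genes, and 10 of them held 47.7% of the summed member level in C0. The highest means over the 14 libraries were those of CYP86A2 (101 FPKM), a fatty acid hydroxylase of cutin synthesis, CYP706A1 (93.2 FPKM), CYP89A2 (89.0 FPKM), CYP706A6 (82.4 FPKM) and CYP96A4 (75.3 FPKM).

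**Figure D1:**
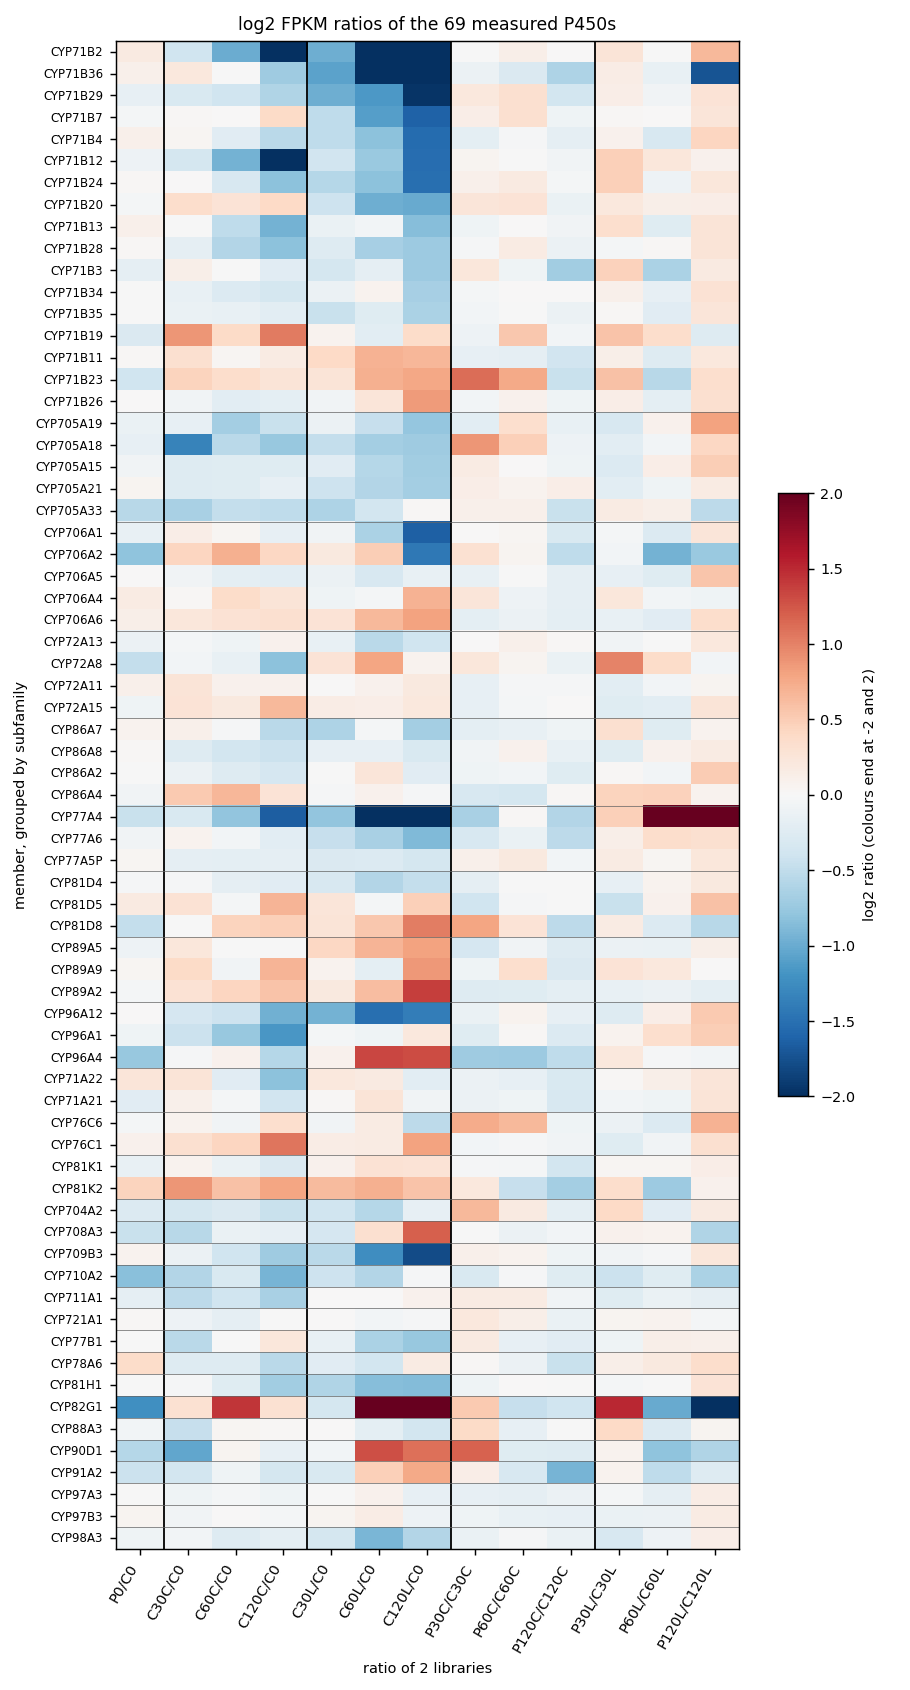
log2 FPKM ratios of the 69 measured members (rows, grouped by subfamily) in the 13 comparisons (columns). Red is higher and blue lower in the first library of each pair, and colours end at -2 and 2. Most CYP71B rows are blue in the 3 light columns, where 13 of 17 (76.5%, against 17.9% of all measured genes) were lower after 120 min. The priming columns are pale for most rows.

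The light response of control plants was the comparison in which most members differed. After 30 min, 1 of 69 members was higher and 8 were lower than in C0, against 4.91% and 8.20% of all measured genes. After 60 min, 10 were higher (14.5%, background 11.0%) and 20 lower (29.0%, background 11.7%), and after 120 min 15 were higher (21.7%, background 14.1%) and 26 lower (37.7%, background 17.9%). The median log2 ratio after 120 min was -0.21 for the members and -0.08 for all genes. At 1 or more of the 3 times, 47 members (68.1%) were past 1.5-fold, against 40.2% of all genes. Every one of these calls exceeded its counting error.

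In the cold, fewer members differed and they did so later. After 30 min, 2 members were higher and 4 lower (background 4.73% and 7.85%), and after 60 min 4 were higher and 5 lower (background 7.41% and 5.62%). After 120 min, 6 were higher (8.70%, background 8.87%) and 17 lower (24.6%, background 10.3%). The share of members lower after 120 min in the cold was thus above the background and the share higher was close to it. Over the 3 times, 29 members (42.0%) were past 1.5-fold at least once, against 27.3% of all genes.

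**Figure D2:**
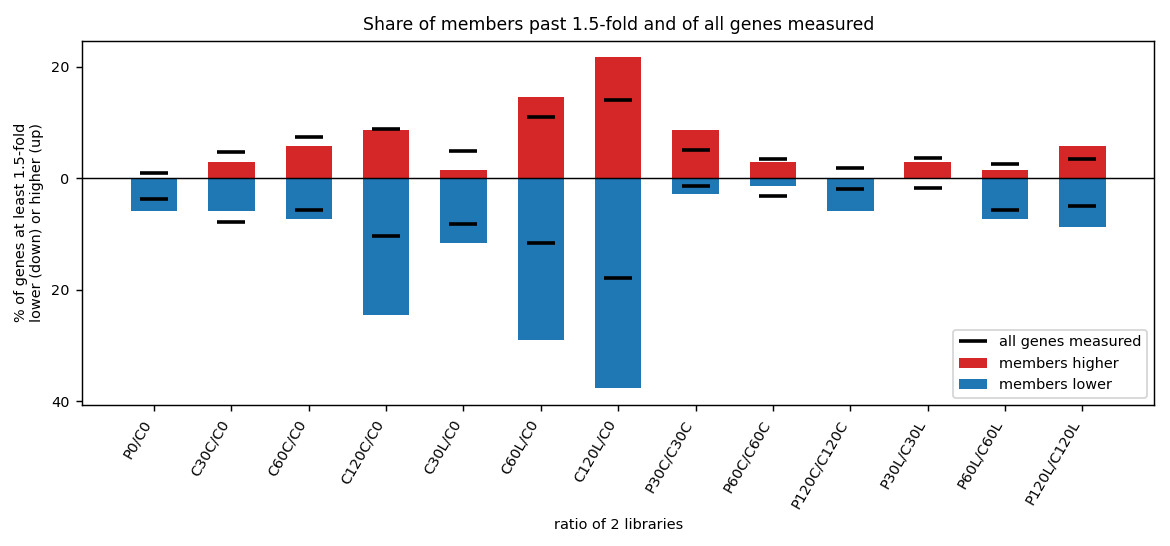
Share of the 69 measured members at least 1.5-fold higher (red, up) or lower (blue, down) in each of the 13 comparisons, in percent, with black marks for the same share among all measured genes. The bars for lower members pass the marks most in C120C/C0 (24.6% against 10.3%), C60L/C0 (29.0% against 11.7%) and C120L/C0 (37.7% against 17.9%).

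After 120 min, 12 members (17.4%, against 4.81% of all measured genes) were lower under both triggers and 2, CYP76C1 and CYP89A9, were higher under both (2.90% against 4.74%). Another 13 were higher (18.8% against 8.51%) and 14 lower (20.3% against 12%) in light alone, 4 were higher (5.80% against 3.04%) and 5 lower (7.25% against 4.69%) in cold alone, and 19 stayed within 1.5-fold (27.5% against 60.3%). No member was higher under 1 trigger and lower under the other at this time, and of all genes 1.08% were higher in cold and lower in light and 0.823% the reverse, so that few or none would be counted in a set of this size. Both ratios share C0, so these counts are not independent of that library.

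The CYP71B subfamily made up much of the lower group. These are CYP71-clan enzymes that include the camalexin enzyme PAD3 (CYP71B15), which the table names in another form. Of its 17 measured members, 9 were lower (52.9%, background 11.7%) and 2 higher (11.8%, background 11%) in C60L. In C120L, 13 were lower (76.5%, background 17.9%) and 3 higher (17.6%, background 14.1%), with a median log2 ratio of -0.85. In C120C, 7 were lower (41.2%, background 10.3%) and 1 was higher (5.88%, background 8.87%). CYP71B2 stood at 39.9 FPKM in C0 and at 45.0 FPKM in P0. In light it was at 20.3, 9.08 and 3.26 FPKM in control plants and at 24.2, 8.99 and 5.12 FPKM in primed plants after 30, 60 and 120 min, and in cold at 30.1, 20.1 and 9.97 FPKM and at 29.8, 21.8 and 10.0 FPKM. Each library of a later time was thus below the one before it under both triggers, to a level 12.2-fold lower in C120L (log2 ratio -3.61, counting SE 0.13) and 4.00-fold lower in C120C (counting SE 0.08 on the log2 scale).

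CYP71B7, a neighbour of CYP71B2, was lower in light but not in cold. Its level was 51.6 FPKM in C0, 36.4, 24.1 and 16.8 FPKM in the control light libraries, and 52.4, 51.9 and 67.5 FPKM in the control cold libraries. CYP71B20 behaved alike, at 14.9 FPKM in C0, 7.39 FPKM in C120L and 19.7 FPKM in C120C. Its coding sequence is 96.2% identical to that of CYP71B19, so that reads could have been split between the pair, and CYP71B19 was at 1.97 FPKM in C0, 4.05 FPKM in C120C and 2.54 FPKM in C120L. CYP71B12 was lower under both triggers, with 9.80 FPKM in C0, 2.47 FPKM in C120C and 3.41 FPKM in C120L. Its neighbour CYP71B11, 92.6% identical over the coding sequence, was at 8.40, 9.42 and 13.4 FPKM in the same 3 libraries.

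The 3 CYP71B members that were higher in C120L were CYP71B11, CYP71B23 and CYP71B26. CYP71B26 stood between 34.4 and 40.3 FPKM in C0, P0 and the control cold libraries and reached 47.2 FPKM in C60L, 71.9 FPKM in C120L and 89.8 FPKM in P120L. It lies between genes of the same subfamily that were lower: in the row of 6 genes on chromosome 3 (9630128 to 9648658, TAIR10.1), CYP71B4, CYP71B34, CYP71B35 and CYP71B36 were lower in C120L. CYP71B36 was at 2.12 FPKM in C0 and at 0.33 FPKM in C120L. CYP71B37, at the end of this row and under the limit by its mean, was at 0.68 FPKM in C0, 2.31 FPKM in C60L and 5.03 FPKM in C120L, but at 0.95 FPKM in P120L.

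**Figure D3:**
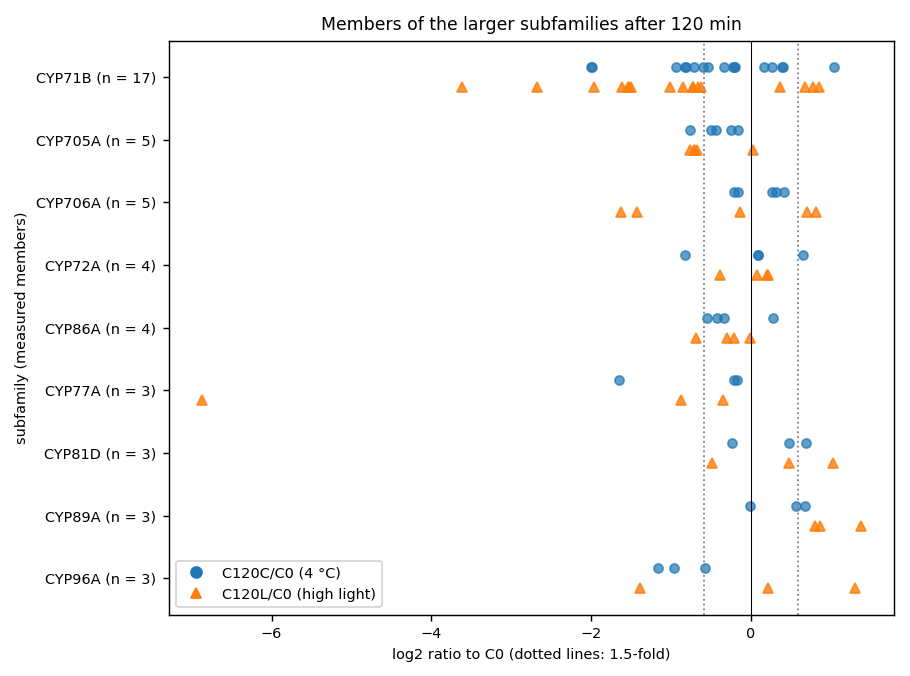
log2 ratios to C0 after 120 min in cold (blue circles) and in high light (orange triangles) for the 9 subfamilies with at least 3 measured members, each point 1 gene. Dotted lines mark 1.5-fold. The CYP71B points in light reach down to -3.61, the 3 CYP89A points in light lie between 0.80 and 1.38, and the point at -6.87 is CYP77A4, which rests on 1 fragment.

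Many members stand next to other P450s. Of the 172 members, 119 had another P450 gene within 20000 bases and 53 had none, and 18 rows held 3 or more P450s. In 11 of these rows 2 or more members were measured. After 120 min of light, all measured members were lower in 2 rows, all were higher in 1, all were within 1.5-fold in 2, 2 rows held members past it in 1 direction beside members within it, and 4 held both higher and lower members. Of all measured genes, 14.1% were higher and 17.9% lower in C120L. In the row on chromosome 1 from 4459002 to 4483751, the measured genes CYP71B2, CYP71B28, CYP71B29 and CYP71B7 were all lower in C120L, with log2 ratios from -3.61 to -0.73. In the row on chromosome 3 from 7007869 to 7030897, all 4 measured CYP705A genes were lower by similar amounts, from -0.77 to -0.68, although their levels in C0 ran from 1.71 FPKM (CYP705A18) to 29.6 FPKM (CYP705A19). CYP705A19 was higher in primed plants at this time, at 30.5 FPKM in P120L against 17.4 FPKM in C120L. In the row on chromosome 1 from 24113109 to 24129557, CYP89A2 and CYP89A5 were both higher in C120L, whereas the 4 measured CYP72A genes of chromosome 3 (4912324 to 4939871) lay between -0.39 and 0.21. Among the rows with both higher and lower members, that on chromosome 3 from 9551812 to 9599988 had 1 CYP71B gene higher and 3 lower. Its log2 ratios ran from -1.50 to 0.78. In the row of CYP706A4, CYP706A5 and CYP706A6 on chromosome 4, which held no lower member, the first and the last were higher and CYP706A5 was within 1.5-fold. Genes of a row share ancestry and in part sequence and are not independent.

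The 3 measured CYP89A genes were all higher in C120L (100%, background 14.1%). CYP89A2 stood at 64.0 FPKM in C0 and at 73.6, 97.9 and 167 FPKM in the control light libraries, and at 66.5, 89.97 and 145 FPKM in the primed ones. In cold it was at 77.8, 86.6 and 94.6 FPKM in control and at 65.1, 73.5 and 82.5 FPKM in primed plants. Under both triggers, all 6 primed libraries stood below the control library of the same time, by less than 1.5-fold. CYP89A9, which oxidises chlorophyll breakdown products, was at 8.09 FPKM in C0, 14.7 FPKM in C120L and 12.9 FPKM in C120C. CYP89A5 reached 47.2 FPKM in C120L from 27.1 FPKM in C0, but is 96.6% identical in its coding sequence to another P450 gene, AT2G12190, so its reads could have been shared.

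Within CYP706A, of which 5 of 7 members were measured, the 2 most abundant genes moved apart in light. CYP706A1 stood at 113 FPKM in C0 and at 101 FPKM in P0. In light it was at 108, 73.1 and 36.5 FPKM in control plants and at 104, 60.2 and 43.3 FPKM in primed plants, a log2 ratio of -1.63 (counting SE 0.04) for C120L/C0. In cold it lay between 81.1 and 125 FPKM. CYP706A6 was at 63.7 FPKM in C0, at 76.5, 100.1 and 111 FPKM in the control light libraries and at 69.2, 85.2 and 142 FPKM in the primed ones, and between 64.9 and 79.2 FPKM in cold. CYP706A1 is 97.3% identical to CYP706A2 (1.26 FPKM in C0), so the value of each may include reads of the other.

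CYP82G1 had the highest ratio of all members. It encodes the enzyme that cuts geranyllinalool to the volatile homoterpene TMTT, which leaves release after attack. It stood at 1.52 FPKM in C0, 1.19 FPKM in C30L, 42.7 FPKM in C60L and 26.7 FPKM in C120L, which is 28.1-fold (log2 4.81, counting SE 0.18) and 17.5-fold (log2 4.13, counting SE 0.19) above C0. In primed plants it was at 0.65 FPKM in P0, 3.40 FPKM in P30L, 21.2 FPKM in P60L and 6.00 FPKM in P120L. The primed level was thus above the control at 30 min of light and below it before the trigger and at 60 and 120 min. Relative to P0 and C0, the primed response at 60 min was 0.21 above that of control plants on the log2 scale, so the direction at this time depends on the start used. The cold libraries held between 1.42 and 4.11 FPKM, with the highest value in C60C.

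**Figure D4:**
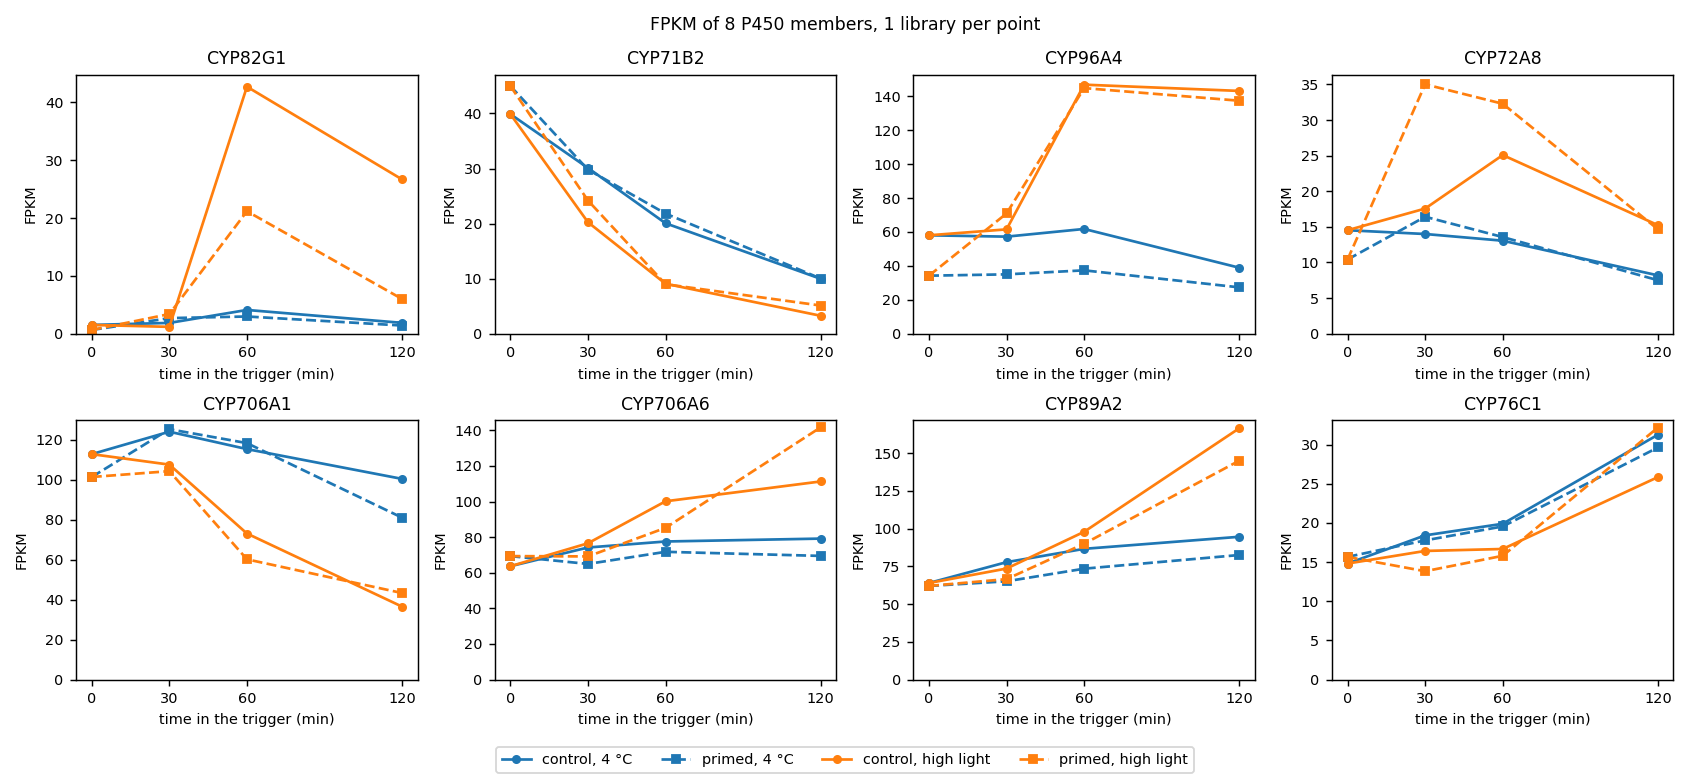
FPKM of 8 members against the time in the trigger in minutes, with 1 library per point (blue, 4 °C; orange, high light; solid lines and circles, control; dashed lines and squares, primed) and axes starting at 0. CYP82G1 reaches 42.7 FPKM in C60L and 21.2 FPKM in P60L, CYP72A8 35.0 FPKM in P30L, and for CYP96A4 the primed points in cold (27.3 to 37.4 FPKM) lie below the control points (38.9 to 61.8 FPKM), whereas in light at 60 and 120 min the pairs lie close together (145 against 147 and 137 against 143 FPKM).

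The other terpenoid member measured was CYP76C1, which oxidises linalool. It was at 14.8 FPKM in C0, 31.3 FPKM in C120C, 29.6 FPKM in P120C, 25.9 FPKM in C120L and 32.2 FPKM in P120L, and between 13.8 and 19.9 FPKM in all libraries of earlier times. All 4 libraries of 120 min were above all others. Of the remaining 11 members of the terpenoid list, none reached a mean of 1 FPKM. CYP708A3, a relative of the thalianol hydroxylase CYP708A2, was at 17.7 FPKM in C0, 40.3 FPKM in C120L and 26.5 FPKM in P120L, and between 11.9 and 16.1 FPKM in the cold libraries.

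Of 29 members that belong to subfamilies acting on fatty acids and wax or cutin precursors, 11 were measured. In C120L, 1 was higher (9.09%, background 14.1%) and 4 were lower (36.4%, background 17.9%). In C120C, 0 were higher (background 8.87%) and 3 were lower (27.3%, background 10.3%). CYP86A2 (ATT1) lay between 71.2 and 129 FPKM and CYP86A8 (LCR) between 12.1 and 18.4 FPKM, and neither was past 1.5-fold in any comparison. Both hydroxylate fatty acids for cutin. CYP96A4, of the subfamily of the wax enzyme MAH1, was at 58.0 FPKM in C0 and 34.2 FPKM in P0. In light it was at 61.5, 147 and 143 FPKM in control and at 70.9, 145 and 137 FPKM in primed plants, 2.53-fold higher in C60L than in C0. CYP96A12 went the other way, from 25.7 FPKM in C0 to 9.02 FPKM in C60L and 9.81 FPKM in C120L, and stood at 13.2 FPKM in C120C. CYP96A1 was at 8.78 FPKM in C0, 10.2 FPKM in C120L and 3.90 FPKM in C120C.

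CYP77A4, which epoxidises fatty acids, was at low levels and is given with its counts. It stood at 3.51 FPKM in C0, 2.03, 0.41 and 0.03 FPKM in the control light libraries, and 2.82, 2.42 and 0.56 FPKM in the primed ones. The value in C120L corresponds to 1 fragment against 134 in C0, a ratio 117-fold lower with a 95% exact counting interval from 20.6 to 4660. P120L held 24 fragments, a level 18.7-fold higher than in C120L, with an interval from 3.04 to 768. CYP77A6, which makes flower cutin together with CYP86A4, was at 3.87 FPKM in C0 and 2.11 FPKM in C120L. Of the 4 other cutin genes listed, 1 was lower (25%, background 17.9%) and 0 were higher (background 14.1%) in C120L.

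CYP98A3, the p-coumaroyl ester 3′-hydroxylase of lignin synthesis, was the only phenylpropanoid member measured. It was at 23.8 FPKM in C0 and at 18.7, 12.7 and 15.9 FPKM in the control light libraries, with the lowest value, 11.7 FPKM, in P60L. Of 11 other genes of the phenylpropanoid and flavonoid pathway, 7 were lower (63.6%, background 11.7%) and 0 higher (background 11%) in C60L. In C120L, 4 of them were lower (36.4%, background 17.9%) and 1 was higher (9.09%, background 14.1%). The 2 members of the carotenoid list, CYP97A3 (LUT5) and CYP97B3, lay between 42.4 and 52.9 FPKM and between 36.9 and 47.1 FPKM over all libraries, and were not past 1.5-fold in any comparison. Of 7 other carotenoid genes, 4 were lower (57.1%, background 17.9%) and 1 was higher (14.3%, background 14.1%) in C120L.

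CYP710A2, a sterol C-22 desaturase, was at 17.3 FPKM in C0 and at 9.67 FPKM in P0. Only C120L, at 17.1 FPKM, stood near C0, and the other 12 libraries held between 7.66 and 14.1 FPKM. Of the hormone members kept by the rule, CYP711A1 (MAX1, strigolactone synthesis) was at 7.37 FPKM in C0, 4.71 FPKM in C120C and 7.85 FPKM in C120L. CYP90D1, a brassinosteroid enzyme, was at 0.97 FPKM in C0 and 2.37 FPKM in C60L, and CYP88A3 (KAO1, gibberellin synthesis) lay between 2.61 and 4.72 FPKM. CYP709B3, which has been linked to salt tolerance, was lower under both triggers, at 31.4 FPKM in C0, 19.1 FPKM in C120C and 9.04 FPKM in C120L. The 8 electron partners, the P450 reductases and cytochrome b5 genes, had 0 lower (background 17.9%) and 2 higher (25%, background 14.1%) in C120L. In C120C they had 0 lower (background 10.3%) and 0 higher (background 8.87%).

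The remaining abundant members varied less. CYP72A11 lay between 56.0 and 76.3 FPKM and was not past 1.5-fold in any comparison, whereas its neighbour CYP72A15 was at 48.3 FPKM in C0, 75.6 FPKM in C120C and 75.8 FPKM in P120C and at 55.7 FPKM in C120L. The coding sequences of both are over 90% identical to that of a neighbouring CYP72A gene, so reads may have been shared. CYP71A21 and CYP71A22, which are 91.4% identical, had their lowest levels in P120C, at 11.2 and 5.87 FPKM, against 18.3 and 12.8 FPKM in C0. CYP71A22 was lower in C120C (7.22 FPKM) and CYP71A21 was not (14.0 FPKM).

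Of the CYP81D genes, CYP81D8, a gene known to respond to xenobiotics and karrikins, was at 1.93 FPKM in C0 and 3.93 FPKM in C120L, and at 3.33 against 1.92 FPKM in P30C and C30C. CYP81D5 was at 4.44 FPKM in C0, 7.14 FPKM in C120C, 7.13 FPKM in P120C and 9.20 FPKM in P120L, so that the level was about the same in both cold libraries of 120 min. CYP81H1 was lower under both triggers, at 30.1 FPKM in C0, 18.6 FPKM in C120C and 16.6 FPKM in C120L. CYP86A4 lay between 3.58 and 5.90 FPKM, with its highest value in C60C. CYP77A5P, a pseudogene by its name, lay between 7.65 and 10.1 FPKM and was not past 1.5-fold in any comparison. Over all 13 comparisons, 56 of the 69 members were past 1.5-fold at least once (81.2%, against 50.9% of all genes) and 13 never were.

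In light, 6 members were lower at each of the 3 times: CYP71B2, CYP71B29, CYP71B36, CYP77A4, CYP81H1 and CYP96A12. In cold, 1 member was higher at each time, CYP81K2, at 1.06 FPKM in C0, 1.59 FPKM and so just at the limit in C60C, and 1.84 FPKM in C120C. The share of all measured genes past the limit at each time was not counted, so both counts stand without a background.

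Markers of other cell types were set beside the responses after 60 and 120 min. The 3 guard cell markers summed to 97.7 FPKM in C0, 70.5 FPKM in C60L and 48.5 FPKM in C120L, where 1 of 3 (GC1) was lower, and to 98.9 FPKM in C120C. In P120L they summed to 41.7 FPKM. Of the 4 mesophyll markers, 1 (LHB1B1) was lower in C120L, and the phloem markers summed to between 26.5 and 44.1 FPKM. The senescing leaf marker SAG12 was at 0.15 FPKM in C0, 1.52 FPKM in C120C and 0.44 FPKM in C120L, but at 0.03 FPKM in P120C and 0.18 FPKM in P120L, beside 12.9, 14.7, 10.6 and 14.8 FPKM of CYP89A9 in these 4 triggered libraries. The part of these shifts in the member levels was not tested.

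Before the trigger, 5 days after priming, 0 members were higher (background 0.858%) and 4 lower (5.80%, background 3.73%) in P0 than in C0. These were CYP82G1, at 0.65 against 1.52 FPKM (log2 ratio -1.23, counting SE 0.30), CYP710A2 at 9.67 against 17.3 FPKM (-0.84, counting SE 0.08), CYP706A2 at 0.72 against 1.26 FPKM (-0.81, counting SE 0.31) and CYP96A4 at 34.2 against 58.0 FPKM (-0.76, counting SE 0.05). The other 65 members lay between -0.58 and 0.44. The low value of CYP706A2 may include reads of CYP706A1, at 113 FPKM in C0 and 97.3% identical in coding sequence. Its counting SE does not cover this.

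During the cold trigger, primed plants had 6 members higher (background 5.05%) and 2 lower (background 1.46%) than control plants after 30 min, 2 higher (3.45%) and 1 lower (3.14%) after 60 min, and 0 higher (1.77%) and 4 lower (2.00%) after 120 min, of which 3 exceeded counting error. CYP96A4 was the lower member at 60 min and 1 of the 2 at 30 min, with 35.0 against 57.2 FPKM in P30C and C30C, 37.4 against 61.8 FPKM in P60C and C60C, and 27.3 against 38.9 FPKM in P120C and C120C. All primed cold libraries were thus below all control cold libraries. Set against each group's own start, the ratios at 30 and 60 min were 0.05 and 0.04 on the log2 scale, and at 120 min 0.25, where the gap (log2 ratio -0.51) was smaller than before the trigger (-0.76) and under 1.5-fold. CYP71B23 was higher in primed plants, at 8.36 against 3.86 FPKM after 30 min and 6.12 against 3.62 FPKM after 60 min, but 2.49 against 3.40 FPKM after 120 min. CYP76C6 had 6.00 against 3.57 FPKM and 5.09 against 3.25 FPKM at 30 and 60 min.

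During high light, primed plants had 2 members higher (background 3.68%) and 0 lower (background 1.67%) after 30 min, 1 higher (2.64%) and 5 lower (5.61%) after 60 min, and 4 higher (3.39%) and 6 lower (4.91%) after 120 min, of which 5 of the lower exceeded counting error. The 2 members higher after 30 min were CYP82G1 and CYP72A8. CYP72A8 was at 10.4 FPKM in P0 and 14.5 FPKM in C0. It stood at 35.0 against 17.6 FPKM in P30L and C30L (log2 ratio 0.99, counting SE 0.06), 32.3 against 25.1 FPKM in P60L and C60L, and 14.7 against 15.2 FPKM in P120L and C120L. In cold it lay between 7.51 and 16.4 FPKM. The highest level was thus reached at 30 min in primed and at 60 min in control plants. CYP708A3 and CYP710A2 were lower in P120L than in C120L, at 26.5 against 40.3 FPKM and 11.0 against 17.1 FPKM, and CYP71B2 was higher, at 5.12 against 3.26 FPKM. Relative to P0 and C0, the log2 ratios of these 3 genes were -0.16, 0.20 and 0.48, all within 1.5-fold. Of the 69 members, 14 had their highest value over all libraries in P120L (20.3%, against 14.0% of all measured genes), and 7 in C120L (10.1%, against 14.2%). The median member ratio of P120L to C120L was 0.19 on the log2 scale against 0.08 for all genes. Over the 3 times, 13 members (18.8%) were past 1.5-fold between primed and control plants in light, and 12 (17.4%) in cold, against 16.1% and 12.1% of all genes.

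Counts for the P450s left out by the rule and for 2 families of conjugating enzymes are given beside the shares of all measured genes, which were 14.1% higher and 17.9% lower in C120L and 8.87% higher and 10.3% lower in C120C. The differences between these groups were not tested. Of the P450s left out by the rule, 16 of 21 were measured, with 12 higher (75.0%) and 2 lower (12.5%) in C120L and 9 higher (56.2%) and 0 lower in C120C. Of 54 glutathione S-transferases, 35 were measured, with 11 higher (31.4%) and 3 lower (8.57%) in C120L and 3 higher (8.57%) and 2 lower (5.71%) in C120C, where the share higher was near that of all genes. Of 125 UDP-glycosyltransferases, 74 were measured, with 18 higher (24.3%) and 19 lower (25.7%) in C120L and 18 higher (24.3%) and 14 lower (18.9%) in C120C.

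The 103 members under the limit held 12 that reached 1 FPKM in some library and 3 that reached 2 FPKM. Besides CYP71B37, these were CYP81G1, at 0.02 FPKM in C0, 2.35 FPKM in C60L and 0.64 FPKM in P60L, and CYP712A1, at 0.73 FPKM in C0, 2.26 FPKM in C120C and listed at 0 in C60C. CYP76C2 was at 0.25 FPKM in C0 and 1.72 FPKM in C120L but 0.20 FPKM in P120L.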

How the data were processed

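Paired-end RNA-seq (BGISEQ-500) of 14 pooled rosette samples was analysed, 1 library per condition. The deposited values are FPKM per gene, which the authors obtained by aligning reads to TAIR10 transcripts with Bowtie2 and estimating levels with RSEM. The submitters' processing notes name HISAT2 2.1.0, so the aligner behind the file is not settled here. Strandedness of the libraries is not given in the sources used here, so overlapping genes cannot be told apart, and RSEM shares reads between near-identical genes by an estimate.

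FPKM were used as deposited, without pseudocount. Ratios were formed for genes with a mean of at least 1 FPKM, with 1.5-fold as the limit, which the authors also used. Genes at 0 in either library gave no ratio. Since the unit holds no counts, the depth was estimated from the smallest steps between low FPKM values of 56 to 89 single-transcript genes per library, and counting errors follow from it. A ratio was said to exceed counting error where its log2 value passed 1.96 SE. Precision is thus limited by counting and by the single library.

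The members, gene lists and rule for named genes were chosen with earlier results of these data known. Named genes were the 10 members of highest mean, the 6 largest ratios per direction in P0/C0 and in the mean over the times of each response, with at least 5 FPKM in 1 library and 1 sign at each time, the largest rise and fall in each of the 13 comparisons, and all measured sterol, carotenoid, phenylpropanoid, camalexin, coumarin and terpenoid members. Other members, as CYP77A4, CYP71B36, CYP76C6 and those under the limit, were named after their values were seen.

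Symbols, positions and upstream bases came from RefSeq TAIR10.1 (all 172 loci matched by locus tag), and coding sequences were compared with blastn (BLAST+ 2.17.0). Python 3.11.15, NumPy 2.4.6, pandas 2.3.3 and matplotlib 3.10.9 were used, and the counting step was tested on simulated data. Alternatives tried were a pseudocount of 1 FPKM, no filter, the filter of the study, 2 rescalings, each group's own start and leaving out hormone families.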

Additional observations from a re-analysis of the deposited data

Results flagged for a closer look

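CYP72A8 had ratios of opposite sign under the 2 triggers, part of which did not exceed counting error. Its log2 ratios of control plants to C0 were -0.05, -0.15 and -0.83 after 30, 60 and 120 min in cold and 0.27, 0.79 and 0.07 in high light, so all 3 cold values were below and all 3 light values above 0. The cold and the light value farthest from 0 differed by -1.615, and they belong to different times, C120C and C60L. The values in C30C, C60C and C120L did not exceed counting error (counting SE 0.08 each), and the median gene of C30C stood at -0.124. The difference was not tested, the 6 ratios share C0, and only 2 of them (C120C and C60L) were past 1.5-fold. Opposite signs were not particular to CYP72A8. For example, the log2 ratios of CYP71B20 at the same times were 0.34, 0.27 and 0.40 in cold. In high light they were -0.42, -0.98 and -1.01.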

How the results depend on the processing

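Each alternative changed 1 choice, and the counts of members higher or lower in the 13 comparisons gave 26 results. Leaving out the hormone families moved none of them by over 1.5 times. Scaling by the median ratio moved 2: 2 lower in C30C/C0 and 5 lower in C30L/C0. Scaling by the reference genes also moved 2: 2 lower in C30C/C0 and 1 higher in P60C/C60C. With a pseudocount of 1 FPKM, which shrinks the ratios of low genes, 12 moved: higher and lower counts were 1 and 1 in C30C/C0, 0 and 4 in C30L/C0 and 2 and 1 in P30C/C30C, the higher count was 1 in C60C/C0 and in P60C/C60C, the lower count was 1 in P120C/C120C and in P60L/C60L, and P120L/C120L had 2 higher and 3 lower. The filter of the study (0.5 FPKM or more in both C0 and P0, 2 FPKM or more on average, leaving 58 members) moved 11: 1 and 1 in C30C/C0, 2 higher in C60C/C0, 0 and 4 in C30L/C0, 3 and 1 in P30C/C30C, 1 lower in P120C/C120C, 0 and 1 in P60L/C60L and 3 lower in P120L/C120L. Against each group's own start, 9 moved: P30C/C30C had 10 higher and 0 lower, P60C/C60C 9 higher, P120C/C120C 2 higher, P30L/C30L 12 higher and 1 lower, P60L/C60L 6 higher and 1 lower, and P120L/C120L 2 lower. With no filter on the mean, which adds members of few fragments, all 26 moved, to higher and lower counts of 9 and 20 in P0/C0, 12 and 19 in C30C/C0, 17 and 19 in C60C/C0, 20 and 34 in C120C/C0, 12 and 20 in C30L/C0, 22 and 42 in C60L/C0, 32 and 44 in C120L/C0, 24 and 7 in P30C/C30C, 16 and 14 in P60C/C60C, 13 and 11 in P120C/C120C, 17 and 6 in P30L/C30L, 8 and 22 in P60L/C60L and 15 and 20 in P120L/C120L. The counts lower in C120C/C0, C60L/C0 and C120L/C0 stayed within 1.5 times under the pseudocount, the filter of the study, both scalings and without the hormone families, and have no own-start value. Among the named genes, 4 ratios changed sign against each group's own start: CYP96A4 in P30C/C30C (0.052) and P60C/C60C (0.037), CYP710A2 in P120L/C120L (0.20) and CYP82G1 in P60L/C60L (0.21), all on the log2 scale. The own-start ratios put the P0 and C0 libraries into every value. Shares of all measured genes under the alternatives are not given. The moved counts thus show only how the member counts depend on each choice. No replicate could be left out with 1 library per condition, and a fit over the 7 control and primed pairs was not run, so these counts carry no error between plants.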
